A study of Mus musculus with 8 samples.

Results

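Semaphorins are guidance cues, some secreted and some held in the cell membrane, and plexins are the receptors that read them. Secreted class 3 semaphorins mostly reach plexins through neuropilins, the ligand-binding co-receptors Nrp1 and Nrp2, whereas the transmembrane classes bind plexins directly. The system steers axons and vessels and moves the cytoskeleton of many other cells. In teeth it is best known through Sema3a, a repellent from the dental mesenchyme that controls when and where nerve fibres enter. The genes described here are all protein-coding mouse genes with a symbol of the form Sema3 to Sema7 followed by a letter or PlxnA to PlxnD followed by a digit, plus Nrp1 and Nrp2. They number 31 of the 56748 genes in the deposited table: 20 semaphorins, 9 plexins and 2 neuropilins. All 31 passed the filter on low counts and were tested.

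Transcripts had been counted by bulk RNA sequencing in 8 libraries of tdTomato-positive cells, sorted by flow cytometry from the apical papilla of lower-jaw molars of mice at postnatal day 10, after tamoxifen at day 3. Both groups carry a conditional deletion of Ctnnb1, the gene for beta-catenin: 4 libraries are labelled cHet with the genotype Ctnnb1(+/-), and 4 are labelled cKO with Ctnnb1(-/-), so the controls had 1 deleted copy too. The labels call the cells CXCL12+ apical papilla cells, name dental pulp as the tissue and, in the protocol, dental follicle cells, and they do not name the Cre line, so which cells recombined is known only as far as these words go. Libraries are called by the names of their table columns (cHet8, cHet11, cHet12 and cHet14, and cKO7, cKO9, cKO14 and cKO15), which give the group but match no sample title. Nothing in the labels ties a library to an animal of its own. The p-values therefore rest on how far libraries differ from each other, and part of that can be technical.

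Each library held 44444033 to 50051392 counts. Values are counts scaled to library depth (CPM, with trimmed-mean factors), differences are log2 values of cKO minus cHet with a standard error (SE), and a gene is said to have risen or fallen where edgeR's quasi-likelihood test gave a Benjamini-Hochberg adjusted p under 0.05 over all 21502 tested genes. Ctnnb1 itself had 257 ± 40.2 CPM in the cHet libraries and 277 ± 39.2 CPM in the cKO libraries (SD, n = 4 each), a count over the whole gene that does not check which exons were deleted. The sorted libraries were not pure by their markers. The summed level of 8 olfactory neuron genes, with Omp among them, was 5535 to 10835 CPM in cHet and 5119 to 6365 in cKO, and 6 ameloblast genes summed to 2309 to 11432 and 4699 to 8535 CPM. The 11 dental papilla genes, with Cxcl12 among them, summed to 480 to 1301 CPM in cHet and 2784 to 5159 in cKO. The 12 general mesenchyme genes summed to 3469 to 11929 and 13506 to 26587 CPM, so both of these sums were separated between the groups. Within the mesenchyme list 10 log2 values were positive and 2 negative, those of Lum (−0.66) and Dcn (−1.04). Its most abundant genes, Col1a1, Col1a2 and Col3a1, each overlapped between the groups. Whether the share of mesenchymal or other cells bears on a semaphorin difference was not tested, and in bulk RNA fewer cells of a type and less RNA per cell cannot be told apart.

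In short, 1 of the 31 genes, the transmembrane semaphorin Sema6d, rose in cKO and none fell. Over all tested genes 1.13% were called, 1.08% higher and 0.0558% lower, so a single gene of 31 is close to what the whole table gives. DESeq2 called 7 of the 31 higher and none lower (8.64% and 4.32% of the genes for which it gave an adjusted p), and limma voom with quality weights called 5 and none (5.95% and 1.26%). The 31 log2 values had both signs, 17 positive and 14 negative, with a median of 0.05 against −0.03 for all tested genes. The largest differences lay in a few genes: Sema6d, Sema3c, Sema3b and Plxnd1 on the higher side, and Sema7a and Plxnc1 on the lower side. At an unadjusted p under 0.05 edgeR gave 7 of the 31 genes on the higher side and 4 on the lower, 22.6% and 12.9%, where 10.8% and 6.33% of all tested genes met that mark.

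**Figure D1:**
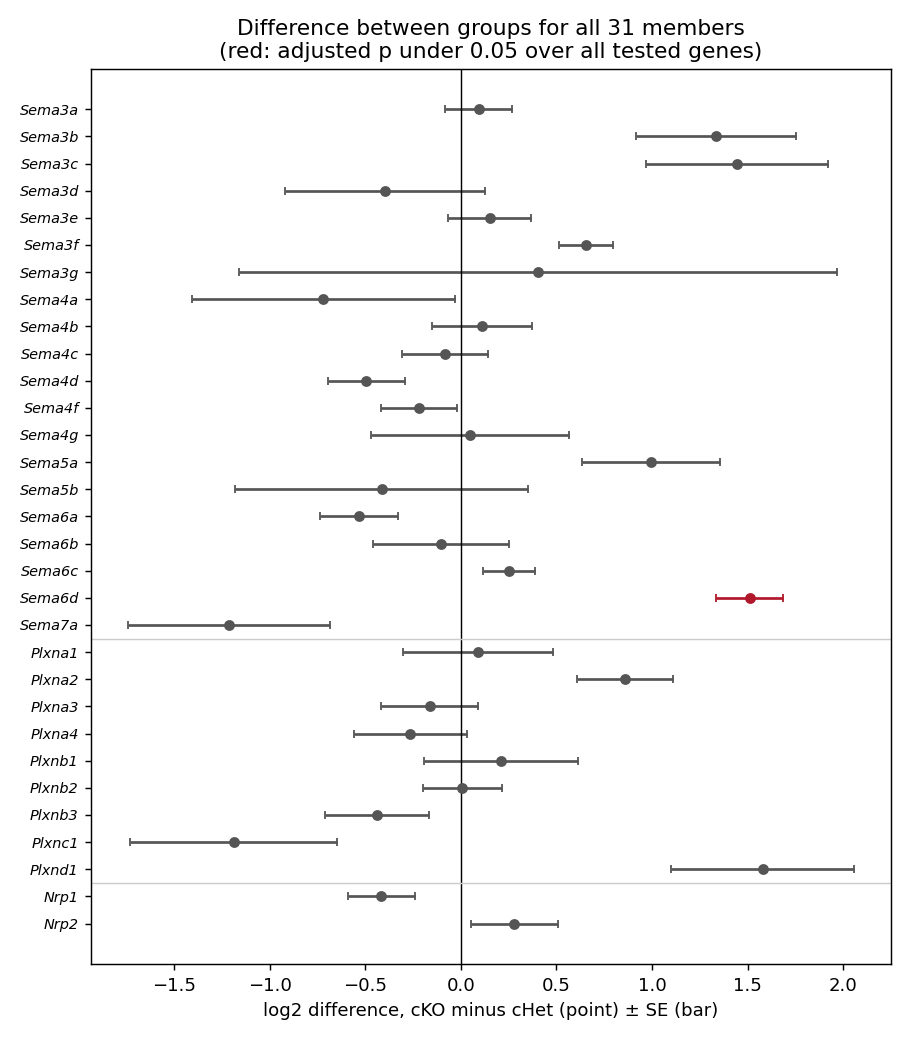
The log2 difference between groups (cKO minus cHet, horizontal axis) is shown for each of the 31 genes as a point with its standard error as a bar, semaphorins above, plexins in the middle and neuropilins below. Sema6d, in red at 1.51, is the single gene that passed the adjusted threshold.

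Sema6d encodes a class 6 semaphorin, a membrane-bound ligand that binds plexin A1 and can also signal back into the cell that carries it. Its level (ENSMUSG00000027200.18, chromosome 2) was 23.3, 17.9, 23.8 and 16.6 CPM in cHet8, cHet11, cHet12 and cHet14. It was 45.8, 57.6, 63.5 and 65.6 CPM in cKO7, cKO9, cKO14 and cKO15. The lowest cKO library thus stood above the highest cHet library by a wide margin, and no library of either group strayed towards the other. The mean rose 2.85-fold, from 20.4 ± 3.68 to 58.1 ± 8.88 CPM (SD, n = 4 each; log2 1.51, SE 0.18, edgeR adjusted p = 0.0254). DESeq2 and limma voom also called it (adjusted p = 1.64e-13 and 0.00834). The call ended without cHet11, cHet12, cHet14, cKO7, cKO14 or cKO15 (adjusted p from 0.0564 without cKO7 to 0.1196 without cKO14), although the log2 value stayed between 1.409 and 1.598 in all 8 omissions of 1 library. With the general mesenchyme score as a covariate the log2 value was 1.21 (adjusted p = 0.249), and with the olfactory neuron score 1.23 (adjusted p = 0.414).

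Because beta-catenin acts on DNA through TCF and LEF factors, the letters those factors are known to bind, CTTTGAT and CTTTGAA on either strand, were searched in the 250 bases before each RefSeq transcript start (build GRCm38.p6, which differs from the build of the counts). Windows were found for 26 of the 31 genes, 37 windows in all. The 5 genes without a window, Plxna1, Plxna4, Sema3b, Sema3f and Sema6a, were not searched. Neither of the 2 Sema6d windows held the letters, and 2 windows did, those of Nrp2 and Sema3e. That is 5.41% of the members' windows, against 7.48% of all 32851 windows in the table. The first line below gives the last 120 bases before the more upstream Sema6d start, shown because Sema6d is the called gene, and the other lines give 60 bases around the matches, in capitals. A match describes letters and not a bound site, and its absence from these windows says nothing of the factors. None of the printed bases lies in an annotated exon.
Sema6d, chr2:124089849-124089968, plus strand: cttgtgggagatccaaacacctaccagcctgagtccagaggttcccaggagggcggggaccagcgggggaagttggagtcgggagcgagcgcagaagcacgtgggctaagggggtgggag
Nrp2, chr1:62703145-62703204, plus strand: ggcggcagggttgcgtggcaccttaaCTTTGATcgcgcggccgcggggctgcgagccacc
Sema3e, chr5:14025131-14025190, plus strand: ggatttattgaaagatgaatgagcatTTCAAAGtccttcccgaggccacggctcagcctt

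None of the other class 6 semaphorins was called. Sema6a, a ligand of plexins A2 and A4, was the most abundant of the class in cHet and pointed the other way, with 65.6, 84.4, 79.0 and 109 CPM in cHet8, cHet11, cHet12 and cHet14. In cKO7, cKO9, cKO14 and cKO15 it had 50.6, 77.0, 59.7 and 46.7 CPM. The groups overlapped through cKO9, which lay among the cHet libraries, and the difference did not pass (log2 −0.53, SE 0.20, edgeR adjusted p = 0.239). Sema6c stood at 57.9 ± 5.80 and 69.0 ± 10.1 CPM (log2 0.25) and Sema6b, the least abundant of the class, at 3.97 ± 1.27 and 3.70 ± 1.08 CPM (log2 −0.10). Within each library the ratio of Sema6d to Sema6a was 0.355, 0.212, 0.301 and 0.152 in cHet8, cHet11, cHet12 and cHet14. The same ratio was 0.904, 0.747, 1.06 and 1.40 in cKO7, cKO9, cKO14 and cKO15. The ratio of this pair was higher in every cKO library than in every cHet library, and it does not depend on the scaling between libraries. It is 1 of 4 ratios computed, all of pairs picked after their values were seen and none with a test. The groups overlapped for 2 of the 4, Sema3c to Sema3a (0.189 to 0.502 in cHet, 0.348 to 1.59 in cKO) and Plxna2 to Plxna4 (0.118 to 0.353 in cHet, 0.343 to 0.766 in cKO).

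**Figure D2:**
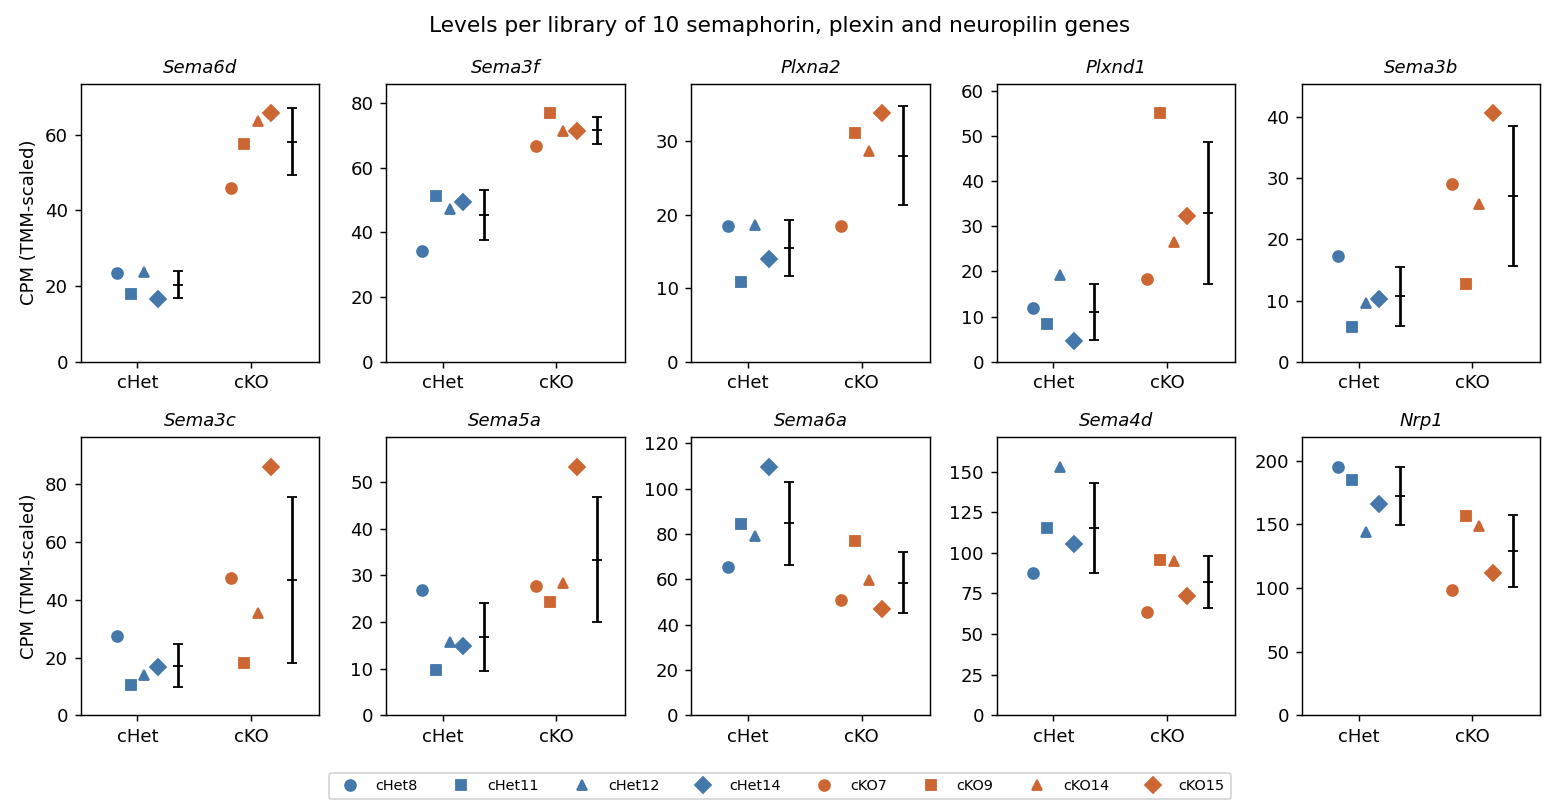
CPM (vertical axes, from 0) in each library is plotted for 10 genes, with cHet in blue and cKO in orange, 1 symbol per library, and the black bar giving mean ± SD over 4 libraries. Sema6d and Sema3f are the genes without overlap between groups. The cKO9 square lies near the cHet points for Sema3b, Sema3c and Sema6a and far above them for Plxnd1.

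Class 3 semaphorins, the secreted ligands, had positive log2 values in 6 of 7 genes, where 47.5% of all tested genes were positive. Their median of 0.40 was the value of Sema3g, a gene with very few counts (SE 1.56). None of the 7 was called by edgeR. Sema3f, which signals through Nrp2, came closest. It had 34.1, 51.2, 47.3 and 49.3 CPM in cHet8, cHet11, cHet12 and cHet14. In cKO7, cKO9, cKO14 and cKO15 it reached 66.7, 76.8, 71.3 and 71.4 CPM. The cKO libraries lay close together and all above the cHet libraries, a 1.57-fold higher mean (log2 0.65, SE 0.14) that missed the threshold (edgeR adjusted p = 0.0720). DESeq2 and voom did call Sema3f (adjusted p = 2.66e-04 and 0.0286). Its log2 value lay between 0.54 and 0.92 in all 18 alternative settings, the mesenchyme covariate among them. The edgeR adjusted p reached 0.458 in these settings. Groups without overlap were found for 2 of the 31 genes, Sema6d and Sema3f, where 10.1% of all tested genes had such groups and 6.46% had them with cKO on the higher side, as both of these did.

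Sema3b and Sema3c had higher mean differences than Sema3f with more spread. Sema3c, a ligand for both neuropilins that can act with plexin D1, had 27.6, 10.6, 13.8 and 16.9 CPM in cHet8, cHet11, cHet12 and cHet14. Its cKO values were 47.6, 18.3, 35.5 and 86.0 CPM in cKO7, cKO9, cKO14 and cKO15. The highest library of all was cKO15, while cKO9 lay below cHet8, so the groups overlapped (log2 1.44, SE 0.48, edgeR adjusted p = 0.185). Sema3b, another neuropilin ligand, had 17.3, 5.71, 9.64 and 10.3 CPM in cHet8, cHet11, cHet12 and cHet14 and 29.1, 12.7, 25.8 and 40.6 CPM in cKO7, cKO9, cKO14 and cKO15. The same libraries, cKO9 and cKO15, stood at the ends of its cKO range, and the difference did not pass (log2 1.33, SE 0.42, edgeR adjusted p = 0.171). DESeq2 called both genes (adjusted p = 0.0172 for Sema3c and 0.0159 for Sema3b), and voom called Sema3b (0.0497). With the mesenchyme covariate the log2 values were 0.26 for Sema3c and 0.20 for Sema3b. The mesenchyme sums were 16319, 13506, 19617 and 26587 CPM in cKO7, cKO9, cKO14 and cKO15. The order was not the same throughout, as cKO7 had more of both genes than cKO14. Because these sums were separated by group, such a fit cannot tell the share of cells from the genotype, and the cause was not tested.

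The remaining class 3 ligands showed smaller differences. Sema3a, the repellent known from tooth innervation, lay between 34.1 and 56.2 CPM in cHet and between 43.3 and 54.0 in cKO (log2 0.09, SE 0.17), so all cKO values fell inside the cHet range. Sema3e, which binds plexin D1 without a neuropilin, stood at 24.8 ± 3.45 and 27.5 ± 7.39 CPM (log2 0.15, SE 0.22). Sema3d stood at 19.95 ± 9.14 and 15.2 ± 9.51 CPM (log2 −0.40, SE 0.52), with 6.84 and 7.05 CPM in cKO7 and cKO9 but 22.8 and 24.0 in cKO14 and cKO15. Sema3g was barely present, with 0 counts in cHet12, cHet14 and cKO7, where a count of 0 allows up to 3 counts or 0.0637, 0.0648 and 0.0669 CPM by counting error alone, and 12 to 42 counts elsewhere. No difference in Sema3g was detectable at this depth (log2 0.40, SE 1.56).

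Class 4 semaphorins are transmembrane ligands, several of them known from the immune system, and 4 of the 6 had negative log2 values (median −0.15, none called). Sema4d, the ligand of plexin B1, had 87.6, 115, 153 and 106 CPM in cHet8, cHet11, cHet12 and cHet14. It had 63.8, 95.5, 95.2 and 73.2 CPM in cKO7, cKO9, cKO14 and cKO15. The groups overlapped only through cHet8, and the difference did not pass (log2 −0.49, SE 0.20, edgeR adjusted p = 0.261). Sema4a, which acts on immune cells and vessels, turned on 1 library: cHet12 had 111 CPM, and the other cHet libraries had 11.2 to 37.5, with 14.9 to 34.2 in cKO. Its log2 value was −0.72 (SE 0.69) with all libraries and 0.33 without cHet12 (adjusted p = 0.805). Sema4c, a plexin B2 ligand, stood at 50.6 ± 6.73 and 47.7 ± 15.95 CPM. Sema4f stood at 27.5 ± 3.59 and 23.6 ± 5.18 CPM, and Sema4b at 6.95 ± 1.38 and 7.51 ± 1.66. Sema4g had 11.4 to 13.6 CPM in all 4 cHet libraries, 5.76 to 8.32 in 3 cKO libraries and 30.4 in cKO9. Its log2 value of 0.05 thus averaged a low and a high side, and it was −0.82 without cKO9 (adjusted p = 0.0824).

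The other semaphorin classes, 5 and 7, hold 2 genes and 1 gene, none of them called by edgeR. Sema5a, a transmembrane protein with thrombospondin repeats that binds plexins of the A and B groups, had 9.69 to 26.9 CPM in cHet and 24.4 to 53.2 in cKO (log2 0.99, SE 0.36, edgeR adjusted p = 0.219). DESeq2 called it, and with the mesenchyme covariate its log2 value was 0.04. Sema5b had 0.346 to 3.66 CPM in cHet and 0.492 to 1.89 in cKO. Sema7a, which is anchored by lipid and binds plexin C1 and beta-1 integrins, had 2.64, 9.77, 4.63 and 10.2 CPM in cHet8, cHet11, cHet12 and cHet14. In cKO7, cKO9, cKO14 and cKO15 it had 1.56, 4.90, 2.98 and 2.31 CPM. The groups overlapped, and the lower mean did not pass (log2 −1.21, SE 0.53, edgeR adjusted p = 0.289).

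Among the plexins no gene was called by edgeR, 5 log2 values were positive and 4 negative. Plxnd1, the receptor for Sema3e and best known from endothelium, had 11.8, 8.46, 19.3 and 4.64 CPM in cHet8, cHet11, cHet12 and cHet14. Its cKO values were 18.3, 55.0, 26.4 and 32.4 CPM in cKO7, cKO9, cKO14 and cKO15. Only cHet12 and cKO7 crossed, and the mean was 2.99-fold higher (log2 1.58, SE 0.48, edgeR adjusted p = 0.157). The 8 endothelial marker genes summed to 19.2 to 39.1 CPM in cHet and 14.1 to 36.7 in cKO, with 3 log2 values positive and 5 negative. Whether endothelial cells bear on the Plxnd1 level was not tested. DESeq2 called Plxnd1 (adjusted p = 0.00887), and so did voom (0.0433). Its log2 value lay between 1.22 and 1.99 in all 18 alternative settings, the mesenchyme covariate among them. The edgeR adjusted p reached 0.813 in these settings.

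Plxna2, a receptor of Sema6a and, with neuropilins, of class 3 semaphorins, had 18.5, 10.8, 18.6 and 13.9 CPM in cHet8, cHet11, cHet12 and cHet14. It had 18.4, 31.1, 28.7 and 33.8 CPM in cKO7, cKO9, cKO14 and cKO15. Apart from cKO7, which lay within the cHet range, the cKO libraries were above all cHet libraries (log2 0.86, SE 0.25, edgeR adjusted p = 0.146). DESeq2 and voom called Plxna2 (adjusted p = 0.0138 and 0.043). With the mesenchyme covariate the log2 value of Plxna2 was 0.40 (edgeR adjusted p = 0.952). The other A plexins had more transcripts and smaller differences: Plxna1 stood at 79.5 ± 12.7 and 84.5 ± 57.3 CPM, Plxna3 at 85.7 ± 8.91 and 76.6 ± 31.8, and Plxna4 at 70.4 ± 18.3 and 58.7 ± 23.5. The kit does not mark strand, and 3 antisense genes named for Plxna4 are in the table, so reads of Plxna4 and of these cannot be told apart where they overlap. For plexin A1 the SD in cKO came from cKO9, which had 169 CPM where the other cKO libraries had 47.2 to 67.9, and the log2 value of 0.09 was −0.50 without that library (adjusted p = 0.150).

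Plexins B and C gave no call either. Plxnb2, a receptor of several class 4 semaphorins, stood at 510 ± 65.4 and 513 ± 153 CPM (log2 0.01, SE 0.21). Plxnb1, the Sema4d receptor, had 42.5 to 69.1 CPM in cHet, 38.2 to 46.4 in 3 cKO libraries and 124 in cKO9, and its log2 value of 0.21 was −0.38 without cKO9 (adjusted p = 0.313). Plxnb3, a Sema5a receptor, stood at 11.8 ± 0.959 and 8.73 ± 2.92 CPM. Plxnc1, the Sema7a receptor and a gene of myeloid cells, had 40.4 CPM in cHet12 and 5.83 to 12.4 in the other cHet libraries, beside 6.67 to 8.77 in cKO. The log2 value of −1.19 (SE 0.54, edgeR adjusted p = 0.310) was −0.38 without cHet12 (adjusted p = 0.647).

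Blood-cell markers were highest in the same library as Sema4a, Sema4d and Plxnc1. The 6 neutrophil genes summed to 14724 CPM in cHet12, to 22.3 to 1055 in the other cHet libraries and to 8.49 to 407 in cKO. The 8 macrophage genes summed to 2923 CPM in cHet12, to 187 to 846 in the other cHet libraries and to 120 to 333 in cKO. No gene of either list was at 0 in all libraries. The part of these cells in the levels of Sema4a, Sema4d and Plxnc1 was not tested beyond leaving out cHet12, where the log2 value of Sema4d was −0.33 (edgeR adjusted p = 0.451).

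**Figure D3:**
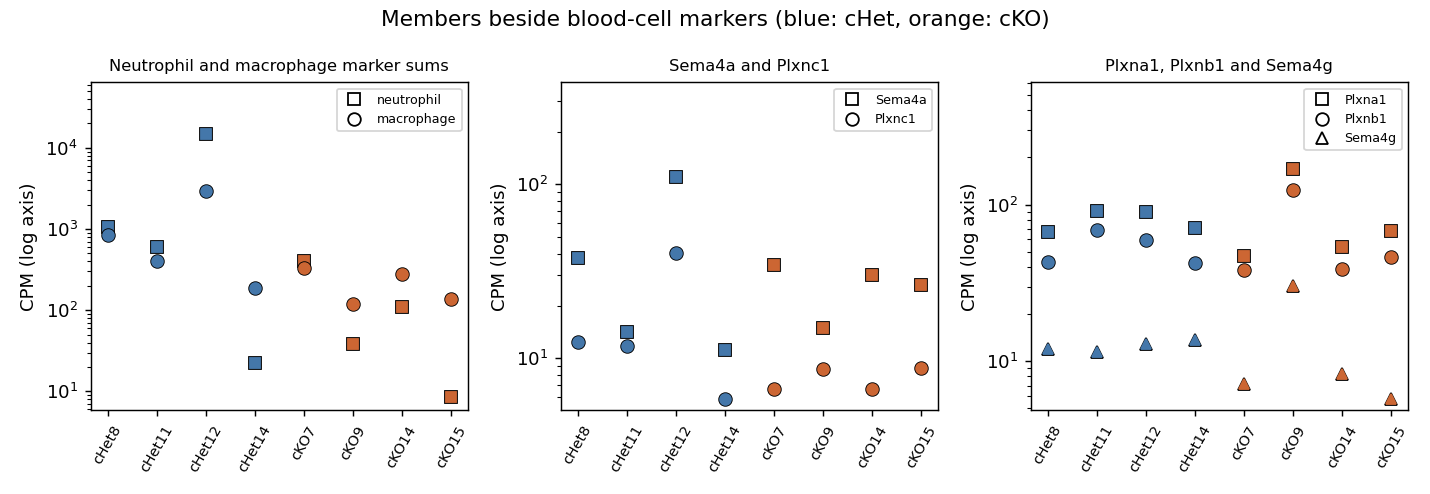
Summed CPM of 6 neutrophil and 8 macrophage genes (left), CPM of Sema4a and Plxnc1 (middle) and of Plxna1, Plxnb1 and Sema4g (right) are shown on log axes, 1 position per library. In the left and middle panels cHet12 is highest, and in the right panel cKO9 is highest.

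The library cKO9 had the highest value of the 8 libraries for 9 of the 31 genes (Plxna1, Plxna3, Plxnb1, Plxnb2, Plxnd1, Sema3f, Sema4c, Sema4g and Sema6c), 29.0%, where it was highest for 14.7% of all tested genes. Against the mean of the other cKO libraries its level was 3.01 times as high for Plxna1, 3.02 times for Plxnb1, 4.29 times for Sema4g and 2.04 times for Plxna3, and 0.324 times as high for Sema3c and 0.400 times for Sema3b. Of the other receptors, Plxnd1 stood at 2.14 times that mean in cKO9, Plxna4 at 1.89 and Plxnb2 at 1.63. The rest were closer to it, at 1.06 times for Plxnb3, 1.118 for Nrp2, 1.154 for Plxna2, 1.18 for Plxnc1 and 1.31 for Nrp1. At the other end, cKO7 had the lowest value for 10 genes, 32.3%, where it was lowest for 16.6% of all tested genes. Summed over the 9 plexins, the level was 760 to 993 CPM in cHet, and in cKO it ran from 593 in cKO7 to 1335 in cKO9. Without cKO9 the median log2 value of the 31 genes was −0.20, with 12 values positive and 19 negative, and Sema6d remained the single call (adjusted p = 0.0173).

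The neuropilins are co-receptors shared by class 3 semaphorins and vascular endothelial growth factors. Nrp1, the Sema3a co-receptor, had 195, 185, 144 and 166 CPM in cHet8, cHet11, cHet12 and cHet14. It had 98.9, 157, 149 and 112 CPM in cKO7, cKO9, cKO14 and cKO15. Of the cHet libraries, 3 exceeded all cKO libraries, and the lower mean did not pass (log2 −0.42, SE 0.17, edgeR adjusted p = 0.272). Nrp2, the Sema3f co-receptor, stood at 131 ± 23.9 and 158 ± 44.4 CPM (log2 0.28, SE 0.23). Neither was called by DESeq2 or voom. The ratio of Nrp2 to Nrp1 within a library was 0.666, 0.890, 0.766 and 0.712 in cHet8, cHet11, cHet12 and cHet14, and 0.980, 1.10, 1.36 and 1.45 in cKO7, cKO9, cKO14 and cKO15. Both neuropilins varied from library to library, yet their ratio was higher in every cKO library than in every cHet library. This is another of the 4 ratios named beside Sema6d, likewise without a test.

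**Figure D4:**
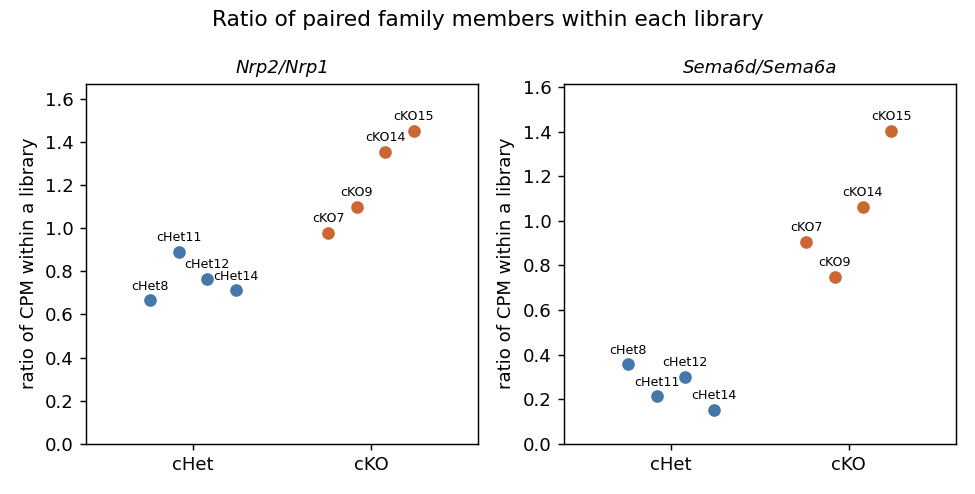
The ratio of CPM of Nrp2 to Nrp1 (left) and of Sema6d to Sema6a (right) is plotted for each library by name, on axes that start at 0. The highest cHet ratio, 0.890 on the left and 0.355 on the right, lies below the lowest cKO ratio, 0.980 and 0.747.

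Levels of different genes were compared per kilobase of the longest coding sequence. Plxnb2 was the most abundant in both groups, at 92.3 ± 11.8 CPM per kb in cHet and 92.9 ± 27.7 in cKO. Nrp1 (62.2 ± 8.16) and Nrp2 (46.8 ± 8.57) followed in cHet, and Nrp2 (56.7 ± 15.9) and Nrp1 (46.6 ± 10.2) in cKO, neighbours whose ranges overlap within each group. Within libraries, Nrp1 was above Nrp2 in every cHet library. In cKO Nrp2 was above Nrp1 except in cKO7, with 34.7 and 35.7 CPM per kb. Sema4d came next in both groups, with 44.7 ± 10.6 and 31.7 ± 6.199 CPM per kb, and in cHet its range overlapped that of Nrp2. Sema3f stood at position 9 in cHet and 5 in cKO, and Sema6d at 19 and 11 of 31. At the bottom were Sema3g, Sema5b and Sema6b in both groups. Counts include reads outside the coding part, and with the length of all exons instead Sema3a stood at position 15 rather than 6 in cHet, while Plxnb2 stayed at position 1 in both groups. By that length Sema3f stood at position 2 in cKO, ahead of Nrp2 at 3, Nrp1 at 4 and Sema4d at 6, and Sema6b stood at position 27 in both groups, out of the lowest 3.

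**Figure D5:**
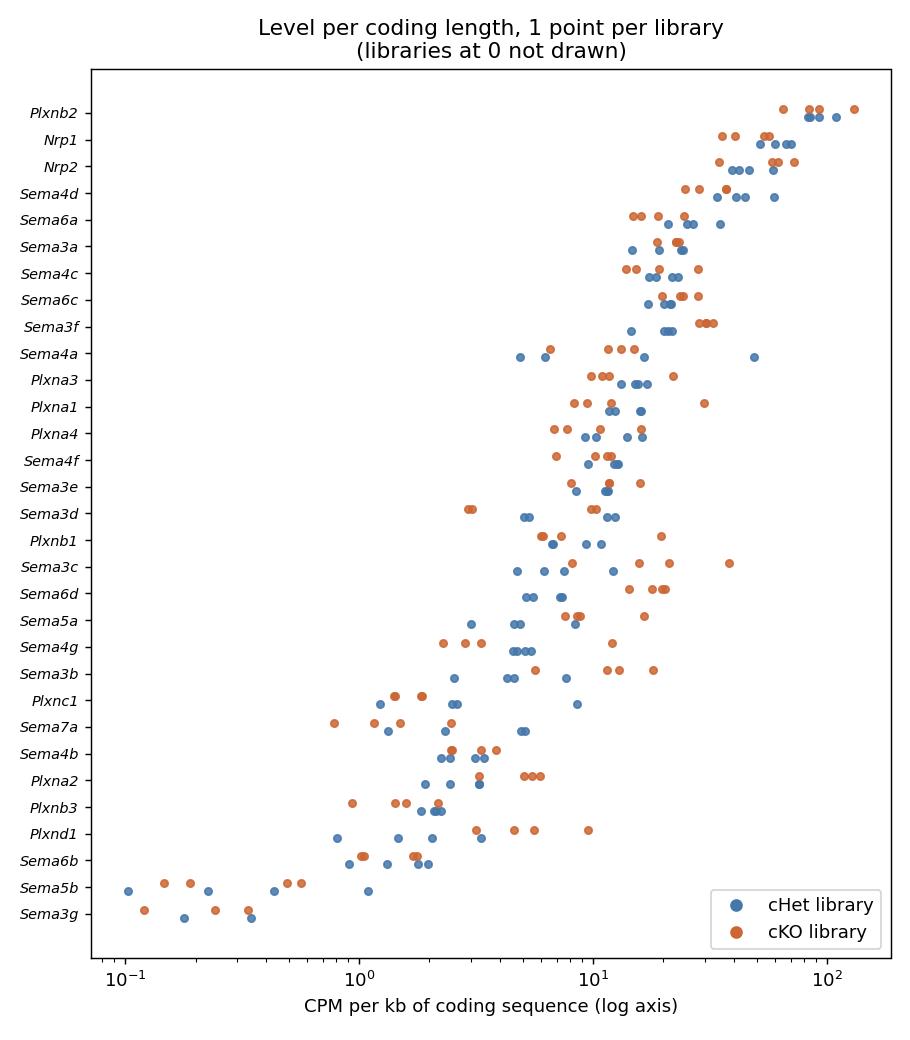
Each point is the level of 1 gene in 1 library, in CPM per kilobase of coding sequence on a log axis, blue for cHet and orange for cKO, with genes ordered by their cHet mean and libraries at 0 left out. Plxnb2 is at the top and Sema3g at the bottom, and the orange points of Sema6d and Sema3f lie to the right of all their blue points.

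Genes that carry the semaphorin signal or share its receptors were followed as a list of 53 partners: co-receptors, other ligands and receptors of neuropilins, and proteins inside the cell. By edgeR 2 of the 53 rose and none fell, beside the 1.08% and 0.0558% of all tested genes, and the median log2 value was 0.07. DESeq2 called 9 higher and 3 lower, where it called 8.64% and 4.32% of all genes, and voom called 7 and 1, where it called 5.95% and 1.26%. Farp1, a guanine nucleotide exchange factor that acts with class 6 semaphorins and plexin A4, had 29.8, 24.9, 33.1 and 32.2 CPM in cHet8, cHet11, cHet12 and cHet14. Its cKO values were 48.5, 75.9, 56.3 and 61.1 CPM in cKO7, cKO9, cKO14 and cKO15, all above every cHet library (log2 1.01, SE 0.16, adjusted p = 0.0385). Mras, a small GTPase of the Ras family, rose from 33.1 ± 3.92 to 53.9 ± 5.66 CPM just inside the threshold (log2 0.70, SE 0.13, adjusted p = 0.04997). With the mesenchyme or the olfactory covariate edgeR called none of the partners higher, and with RLE factors, with library size alone or with no filter it called 1. Without any 1 of the libraries other than cKO9, no partner was called by edgeR, and without cKO9 there were 6 higher and 1 lower.

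Several partners had higher means without passing. Erbb2, which associates with B plexins, stood at 22.5 ± 5.998 and 64.0 ± 20.7 CPM (edgeR adjusted p = 0.0610). Flt4, the receptor tyrosine kinase that pairs with Nrp2, stood at 3.78 ± 2.39 and 23.3 ± 11.9 CPM (adjusted p = 0.0632), and Plxdc2, a plexin-domain protein outside the plexin family, at 47.7 ± 20.8 and 139 ± 49.5 CPM (adjusted p = 0.0894). On the lower side the smallest p-values belonged to Trem2, at 5.07 ± 2.05 and 1.95 ± 0.750 CPM (adjusted p = 0.166), and Dpysl2, the collapsin response mediator first tied to Sema3a, at 117 ± 24.9 and 80.9 ± 10.8 CPM (adjusted p = 0.177). Tyrobp, the myeloid adaptor that joins Trem2 and plexin A1, stood at 72.3 ± 94.2 and 11.2 ± 6.76 CPM, with its highest value, 212 CPM, in cHet12, where the neutrophil and macrophage sums were also highest. Flt1, a vascular receptor that also binds Nrp1 ligands, stood at 3.24 ± 1.98 and 0.493 ± 0.612 CPM (adjusted p = 0.274). Groups did not overlap for 6 of the 53 partners on the higher side, Erbb2, Flt4 and Plxdc2 among them. On the lower side they did not overlap for 2, Trem2 and Flt1. Over all tested genes 6.46% and 3.68% had such groups on the higher and the lower side.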

How the data were processed

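The deposited values are raw counts per Ensembl gene made by the authors, as whole numbers without normalization. Per the submitters' processing notes, Trim Galore, STAR, GRCm39 and mm39 were used. The sources used here name neither a counting tool nor an annotation. A SMART-Seq v4 kit, which carries no molecular identifiers, amplified the cDNA. Identifiers were matched to symbols (52073 of 56748), and the identifier with the largest total stood for a shared symbol. Biotypes and lengths came from GENCODE M21, promoters from RefSeq (GRCm38.p6).

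The comparison used edgeR 4.0.16 under R 4.3.3: TMM factors, filter by group (21502 genes), a two-sided quasi-likelihood test on genotype alone, Benjamini-Hochberg over all tested genes. The SE is the log2 difference divided by the square root of F. DESeq2 1.42.0 and limma 3.58.1 (voom with quality weights) were alternatives. Scores used as covariates are mean log2 CPM (prior count 2). The test was tested on simulated data. The members and lists were chosen with earlier results of these data known. All 31 members are given; called ones, or those with the smallest p on each side, are given by library. Of the partners, the called ones and, as none fell, the 4 lowest p on that side are named. Erbb2, Flt4 and Plxdc2, and the 4 ratios, were chosen after their values were seen.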

Additional observations from a re-analysis of the deposited data

Results flagged for a closer look

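A library far from the others of its group was looked for in each of the 62 sets of 4 values (31 genes in 2 groups). Chance flags about 1 in 20 sets that are independent and normally distributed. Here 8 were flagged, but the sets share the same libraries, so that rate does not apply directly. In cKO9 this concerned Plxna1 (169 CPM, the next cKO library at 67.9), Plxna3 (124 and 65.9), Plxnb1 (124 and 46.4) and Sema4g (30.4 and 8.32), each on the high side. Sema5a was high in cKO15 (53.2 CPM, next 28.3) and Sema3a low in cKO7 (43.3 CPM, next 52.3). In cHet11 the low values were those of Sema3e (19.6 CPM, next 26.1) and Sema4f (22.2 CPM, next 28.6).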

How the results depend on the processing

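Sema6d was called in 10 of 18 alternatives, and its log2 value lay between 1.21 and 1.63 in all 18. Every change of test, scaling, filter or identifiers kept the call. The call ended with either covariate and without cHet11, cHet12, cHet14, cKO7, cKO14 or cKO15. Without both cHet12 and cKO9 Sema6d was still the single member called. Depth limits Sema3g, with 0 counts in 3 libraries. Leaving out cHet12 and cKO9 together, and ordering by exon length, were chosen after seeing the data. Of the 31 genes 16 kept their sign in all 18 alternatives. No paired analysis was possible because the columns carry none of the replicate numbers of the labels.

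Members called higher numbered 1, and 7 by DESeq2, 5 by voom, 0 with the mesenchyme or the olfactory covariate and 0 to 1 with 1 library left out. Over all genes 232 were higher and 12 lower. The higher count was 1703 by DESeq2, 1280 by voom, 7 with the mesenchyme covariate, 0 with the olfactory covariate, 444 without cHet12 and cKO9 and 0 to 819 with 1 library left out. The lower count was 852, 271, 2, 0, 52 and 0 to 144 in the same order, and 5 with no filter. With the olfactory covariate edgeR had 1466 genes at an unadjusted p under 0.05, and without cHet12, cHet14 or cKO14, where no gene was called, 3353, 3022 and 2933. Partners called higher numbered 2, and 9 by DESeq2, 7 by voom, 1 with RLE factors, with library size alone or with no filter, 0 with either covariate, 4 without cHet12 and cKO9 and 0 to 6 with 1 library left out. Partners called lower numbered 0, and 3 by DESeq2, 1 by voom and 0 to 1 with 1 library left out. The median log2 value of the members was −0.25 without cHet12 and cKO9 and −0.20 to 0.15 with 1 library left out. Library size alone put 14 members on the positive side and 17 on the negative side. The cause of these differences was not tested.

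The following log2 values changed sign. By voom they were −0.33 for Plxna1, −0.21 for Plxnb1, −0.061 for Plxnb2, 0.28 for Sema4a, −0.48 for Sema4g, 0.18 for Sema5b and 0.0099 for Sema6b. With the mesenchyme covariate they were 0.25 for Plxna3, 0.42 for Plxna4, −0.35 for Sema3e, −0.070 for Sema4b, 0.0093 for Sema4c, 0.26 for Sema6b and 0.048 for Sema7a. With the olfactory covariate they were 0.058 for Plxna3, 0.085 for Plxna4, −0.067 for Sema3a, −0.020 for Sema3e and −0.61 for Sema3g. Without cHet12 and cKO9 they were −0.42 for Plxna1, −0.31 for Plxnb1, −0.19 for Plxnb2, −0.043 for Sema3a, −0.52 for Sema3g, 0.54 for Sema4a and −0.79 for Sema4g. Plxnb2 stood at −0.0023 by DESeq2 and with RLE factors, −0.086 with library size alone and −0.010 with a filter of 1 CPM. With library size alone Sema3a stood at −0.014 and Sema4g at −0.020. With 1 library left out the ranges were −0.50 to 0.25 for Plxna1, −0.38 to 0.36 for Plxnb1, −0.20 to 0.12 for Plxnb2, −0.038 to 0.18 for Sema3a, −0.021 to 0.30 for Sema3e and −0.12 to 1.52 for Sema3g. They were −1.04 to 0.33 for Sema4a, −0.024 to 0.20 for Sema4b, −0.33 to 0.043 for Sema4c, −0.82 to 0.29 for Sema4g, −0.76 to 0.44 for Sema5b and −0.31 to 0.059 for Sema6b.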
